A study of Mus musculus with 6 samples.

Results

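Genes read out in liver fibrosis as products of activated hepatic stellate cells and myofibroblasts were followed in liver tumors of mice with and without *Prmt3* in hepatocytes. They are *Acta2*, *Tagln*, *Des*, *Pdgfrb*, *Lox*, *Timp1*, *Tgfb1*, *Dcn*, *Lum* and *Mmp2*, and they were taken by gene name from a table of 34745 genes. All 10 were among the 13892 genes that passed the filter on low counts. Bulk RNA-seq was made from 3 Prmt3f/f tumors (replicates 7, 66 and 71, labelled WT) and 3 Prmt3LKO tumors (replicates 92, 93 and 94, labelled Prmt3-KO), with 1 library for each tumor. Mice of both groups were male, carried floxed *Prmt3* alleles and received the hepatocarcinogen diethylnitrosamine (DEN, 25 mg/kg) at 2 weeks of age. From 6 weeks they received the hepatotoxin CCl4 (10%, 0.5 ml/kg) repeatedly, and tumors were collected at 26 weeks. In Prmt3LKO mice an albumin promoter drives Cre, so that the deletion is made in hepatocytes, and stellate cells and other stromal cells keep the gene. The labels do not tie each tumor to a separate mouse, so the p-values measure the spread between these 6 samples.

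Hepatic stellate cells lie between hepatocytes and the sinusoidal endothelium, where they store vitamin A. After injury, such as that made by CCl4, they are activated by PDGF and TGF-beta, lose their vitamin A droplets, begin to contract and deposit fibrillar collagen with the proteins that bind and cross-link it. Portal fibroblasts and vascular smooth muscle express many of the same genes. In RNA from whole tumors, fewer cells of a type and less RNA in each cell cannot be told apart.

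None of the 10 genes passed the test between genotypes, and none was called in either direction (edgeR's quasi-likelihood test at an adjusted p under 0.05, with the Prmt3LKO level no less than 2 times, or no more than 0.5 times, the Prmt3f/f level). Over all genes tested the share called by this test was also 0%. The test gave 0 of the 10 genes an unadjusted p under 0.05, against 6.56% of all genes tested. With the fold limits kept, 1.77% of all genes tested were lower and 0.317% higher at that unadjusted p. DESeq2, edgeR's exact test and limma-voom likewise gave 0 of the 10 called and 0 at an unadjusted p under 0.05. Their shares over all genes are not given here. The fitted log2 fold change of Prmt3LKO against Prmt3f/f was below 0 for 9 of the 10 genes, with *Tagln* the exception, and its median was -0.28, where 49.9% of all genes tested lay below 0. In 1 of the 10 genes, *Tgfb1*, every Prmt3LKO tumor lay below every Prmt3f/f tumor, near the 6.6% of all genes tested with such an order, and 0 of the 10 had the opposite order, against 5.56%. Apart from *Tgfb1*, single tumors of a group differed more than the group means, with Prmt3f/f replicate 71 low and Prmt3LKO replicate 94 high for most of these genes.

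**Figure D1:**
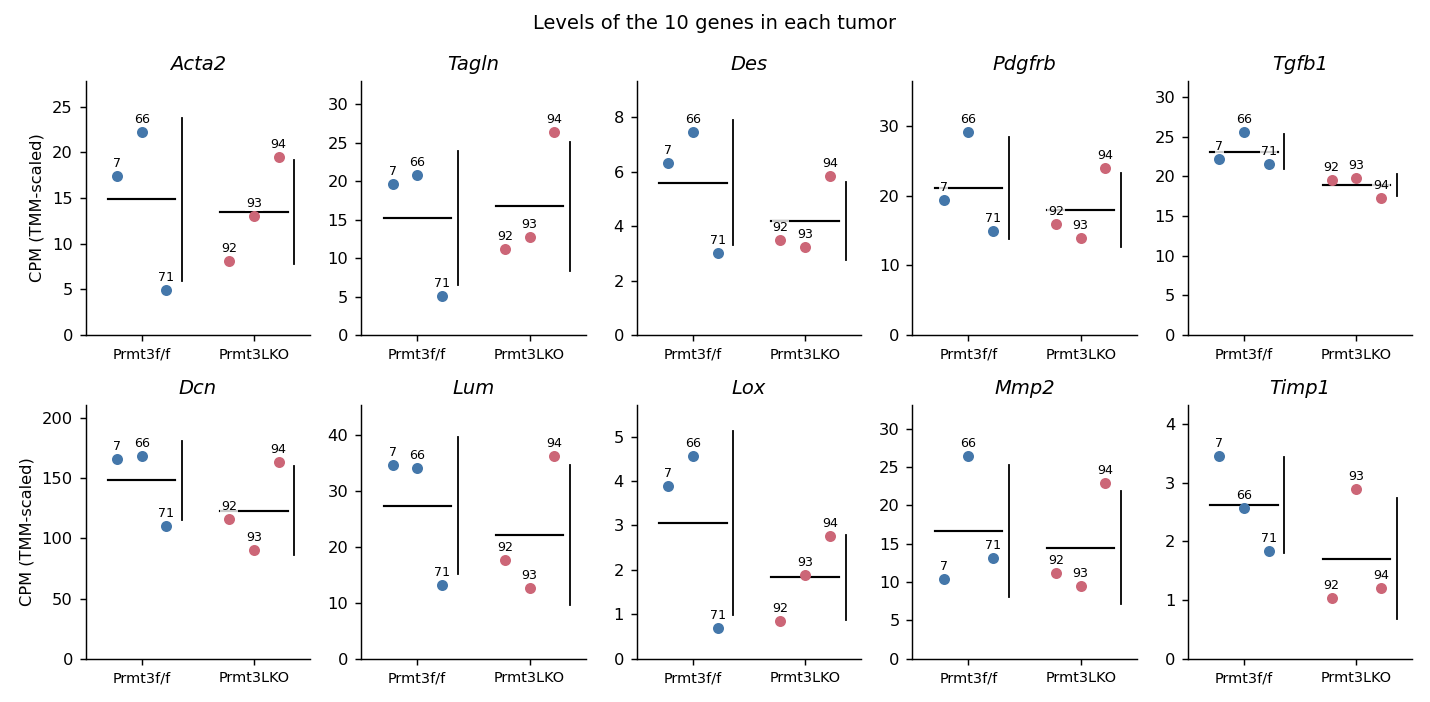
Level of each of the 10 genes in each tumor, in CPM (reads of the gene relative to the TMM-scaled size of its library) on a linear axis from 0, with replicate numbers above the points, a horizontal bar at each group mean and a vertical line of 1 SD to either side of it. Acta2 ran from 4.89 to 22.3 CPM within Prmt3f/f tumors, and Tgfb1 is the gene whose groups do not overlap.

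Promoter sequence is shown for a contractile gene, an intermediate filament gene and the ligand, because the contractile genes of smooth muscle and myofibroblasts are known targets of serum response factor, which binds the CArG box. RefSeq promoters of GRCm38.p6 were found for 4 of the 10 genes (*Acta2*, *Des*, *Tgfb1* and *Timp1*), and the 250 bases before the RefSeq start are printed 5′ to 3′ on the gene's strand for 3 of them. Capitals mark CArG-like matches, which are the CArG box with at most 1 of its 6 inner bases allowed to be C or G. The windows are chr19:34255374-34255623 on the minus strand for *Acta2*, chr1:75360042-75360291 on the plus strand for *Des* and chr7:25686752-25687001 on the plus strand for *Tgfb1*.
Acta2: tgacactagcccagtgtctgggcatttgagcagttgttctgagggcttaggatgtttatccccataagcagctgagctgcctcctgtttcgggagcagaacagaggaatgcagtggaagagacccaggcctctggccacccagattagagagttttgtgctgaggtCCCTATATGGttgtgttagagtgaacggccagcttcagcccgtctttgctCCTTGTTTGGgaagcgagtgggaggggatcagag
Des: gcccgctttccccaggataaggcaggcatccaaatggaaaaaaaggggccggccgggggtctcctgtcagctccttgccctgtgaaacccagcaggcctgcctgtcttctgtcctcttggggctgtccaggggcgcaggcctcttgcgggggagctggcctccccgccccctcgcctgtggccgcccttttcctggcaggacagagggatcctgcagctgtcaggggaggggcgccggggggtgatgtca
Tgfb1: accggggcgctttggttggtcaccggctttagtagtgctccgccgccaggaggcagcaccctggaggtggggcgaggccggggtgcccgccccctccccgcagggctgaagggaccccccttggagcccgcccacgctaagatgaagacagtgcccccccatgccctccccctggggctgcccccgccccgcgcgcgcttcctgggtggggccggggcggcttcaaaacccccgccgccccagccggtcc

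The *Acta2* window held 2 CArG-like matches, CCCTATATGG at 84 to 75 bases and CCTTGTTTGG at 34 to 25 bases before the RefSeq start. The windows of *Des*, *Tgfb1* and *Timp1* held 0. On both strands, 8.6% of 32817 promoter windows of this length held such a match. The strict CArG box was held by 1.47% of windows and was found 0 times in *Acta2*, *Des*, *Tgfb1* and *Timp1*. CATTCC, the core bound by TEAD factors, was found 1 time in *Acta2* and 1 time in *Timp1*, in both as GGAATG on the gene's strand, against 12.6% of windows. TATAAA, held by 12.4% of windows, and TGACTCA, the AP-1 site, held by 4.46%, were found in 0 of these 4. These matches describe the letters in the windows only. The windows of *Acta2* and *Des* end upstream of the gene starts given below, 34255336 and 75360329, and the bases between were not searched. Those of *Tgfb1* and *Timp1* reach the gene start. The window of *Tgfb1* was the richest in G and C of the 4, at 75.2%, against 53.6% for *Acta2*, 54.4% for *Timp1* and 67.2% for *Des*.

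Per length, *Dcn* was the most abundant of the 10 genes, with a mean of 64.9 FPKM over the 6 tumors. FPKM is the count scaled by a length set for each gene, shorter than its span, and by the depth of the library. It lay above *Lum* in 6 of 6 tumors, and the ranges of these genes did not overlap. *Lum* (11.9 FPKM), *Tagln* (10.1 FPKM), *Acta2* (7.96 FPKM), *Mmp2* (5.10 FPKM), *Tgfb1* (3.68 FPKM), *Pdgfrb* (2.53 FPKM), *Timp1* (1.58 FPKM) and *Des* (1.12 FPKM) followed, and each of them overlapped in range with its neighbor in this order. Of these neighbors, *Tagln* lay above *Acta2* in 6 of 6 tumors, and *Mmp2* above *Tgfb1* in 4. *Lox* was lowest at 0.328 FPKM, below *Des* in 6 of 6 tumors. Together the 10 genes took 0.0187% to 0.0334% of the counts of a tumor, against 11% to 16.1% for albumin.

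The contractile and cytoskeletal genes are given first. *Acta2* (ENSMUSG00000035783, chromosome 19, 34241090 to 34255336 of GRCm38, minus strand) encodes smooth muscle alpha-actin, the usual stain for activated stellate cells. Its level was 17.4, 22.3 and 4.89 CPM in Prmt3f/f replicates 7, 66 and 71, and 8.12, 13.0 and 19.5 CPM in Prmt3LKO replicates 92, 93 and 94. The lowest tumor and the highest tumor were both Prmt3f/f, and all 3 Prmt3LKO tumors lay between them. The mean was 14.8 ± 8.96 CPM (SD, n = 3) in Prmt3f/f and 13.5 ± 5.69 CPM (SD, n = 3) in Prmt3LKO tumors. The log2 fold change was -0.13 (SE 0.53, 95% interval -1.37 to 1.11, Benjamini-Hochberg adjusted p = 0.989, edgeR).

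*Tagln* (chromosome 9, 45929628 to 45936058, minus strand) encodes transgelin, an actin-binding protein of smooth muscle and myofibroblasts. It was measured at 19.7, 20.8 and 5.13 CPM in Prmt3f/f replicates 7, 66 and 71, and at 11.1, 12.7 and 26.4 CPM in Prmt3LKO replicates 92, 93 and 94. The lowest value was again Prmt3f/f replicate 71 and the highest was Prmt3LKO replicate 94, so the groups overlapped over most of the range. The log2 fold change was 0.15 (SE 0.53, adjusted p = 0.988, edgeR), the one positive value among the 10. The locus overlaps *Pcsk7* and the antisense gene Gm48529 on the other strand, and the use of strand in counting is not given, so reads of these genes cannot be told apart where they overlap.

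*Des* (chromosome 1, 75360329 to 75368579, plus strand) encodes desmin, the muscle intermediate filament that marks stellate cells of rodents. Prmt3f/f replicates 7, 66 and 71 had 6.32, 7.46 and 3.02 CPM, and Prmt3LKO replicates 92, 93 and 94 had 3.49, 3.25 and 5.83 CPM. Prmt3f/f replicate 71 was the lowest of all 6 tumors, and replicates 7 and 66 lay above every Prmt3LKO tumor. The mean was 5.60 ± 2.31 CPM (SD, n = 3) against 4.19 ± 1.43 CPM (SD, n = 3), a log2 fold change of -0.42 (SE 0.39, adjusted p = 0.934, edgeR). Across these 3 genes the contractile pattern was shared, since each had replicate 71 as the lowest Prmt3f/f tumor and replicate 94 as the highest Prmt3LKO tumor. The ratio of *Acta2* to *Tagln* in FPKM stayed between 0.648 and 0.952 in the 6 tumors, a narrower range than the levels, which varied 4.55-fold for *Acta2* and 4.05-fold for *Tagln* within Prmt3f/f tumors.

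The next genes encode a receptor and a ligand that activate stellate cells. *Pdgfrb* (chromosome 18, 61045150 to 61085061, plus strand) encodes the receptor through which PDGF drives stellate cells to divide and migrate. Its level was 19.4, 29.2 and 14.9 CPM in Prmt3f/f replicates 7, 66 and 71, and 16, 13.9 and 23.9 CPM in Prmt3LKO replicates 92, 93 and 94. The groups overlapped, with Prmt3f/f replicate 66 highest and Prmt3LKO replicate 93 lowest. Prmt3LKO tumors had a log2 fold change of -0.24 (SE 0.30, 95% interval -0.93 to 0.45, adjusted p = 0.957, edgeR).

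*Tgfb1* (chromosome 7, 25687002 to 25705077, plus strand) encodes the main profibrotic cytokine, which is made by leukocytes and platelets as well as by stromal cells. It was measured at 22.2, 25.6 and 21.6 CPM in Prmt3f/f replicates 7, 66 and 71, and at 19.6, 19.8 and 17.3 CPM in Prmt3LKO replicates 92, 93 and 94. Every Prmt3LKO tumor was below every Prmt3f/f tumor, and the spread was the smallest of the 10 genes, 1.19-fold within Prmt3f/f and 1.15-fold within Prmt3LKO tumors. The mean was 23.1 ± 2.18 CPM (SD, n = 3) against 18.9 ± 1.40 CPM (SD, n = 3), or 81.7% of the Prmt3f/f mean. The log2 fold change was -0.29 (SE 0.14, 95% interval -0.62 to 0.043), with an unadjusted p = 0.0789 and an adjusted p = 0.778 in edgeR. By exact permutation of the 6 tumors the two-sided p was 0.1, and no smaller value is possible with groups of 3.

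*Tgfb1* also departed from most of the 10 genes in its tumor order, since Prmt3LKO replicate 94 was its lowest tumor of all. Replicate 93 was the highest Prmt3LKO tumor in 2 of the 10 genes, *Tgfb1* and *Timp1*, against 36.9% of all genes tested. The summed leukocyte markers were also lower in Prmt3LKO tumors. The 9 markers (*Ptprc*, *Cd3e*, *Cd8a*, *Cd79a*, *Adgre1*, *Cd68*, *Clec4f*, *Itgam* and *Itgax*) summed to 243.5, 244.1 and 195.9 CPM in Prmt3f/f replicates 7, 66 and 71, and to 167.7, 132.3 and 186.5 CPM in Prmt3LKO replicates 92, 93 and 94. Within Prmt3LKO tumors the sum was highest in replicate 94, where *Tgfb1* was lowest. *Clec4f* alone made 86.3, 51.6 and 86.9 CPM of the sums in replicates 92, 93 and 94. Replicate 94 was the highest Prmt3LKO tumor in 4 of the 9 markers, against 33.8% of all genes tested. All 9 had a fitted log2 fold change below 0, 6 of 9 had groups that did not overlap, against 6.6% of all genes tested, and none of the 9 was at 0 in all tumors. The quasi-likelihood test and limma-voom called 0 of the 9, and DESeq2 and edgeR's exact test called 2 lower, *Cd8a* and *Itgam*. The shares of all genes called by DESeq2, the exact test and limma-voom are not given here. The part of the leukocyte markers in the level of *Tgfb1* was not tested.

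Among the matrix proteins, *Dcn* (chromosome 10, 97479500 to 97518162) and *Lum* (chromosome 10, 97565501 to 97572703) encode decorin and lumican, small leucine-rich proteoglycans that bind collagen fibrils. They lie on the plus strand 47338 bp apart, with 0 other annotated genes between them in GENCODE. *Dcn* was measured at 165.7, 168.7 and 110.2 CPM in Prmt3f/f replicates 7, 66 and 71, and at 116.0, 90.0 and 163.0 CPM in Prmt3LKO replicates 92, 93 and 94. *Lum* had 34.7, 34.2 and 13.2 CPM in the Prmt3f/f tumors and 17.6, 12.6 and 36.3 CPM in the Prmt3LKO tumors, in the same order. In both genes 3 tumors were high, Prmt3f/f replicates 7 and 66 and Prmt3LKO replicate 94, and the other 3 were low. The log2 fold change was -0.27 for *Dcn* (SE 0.26, adjusted p = 0.940) and -0.30 for *Lum* (SE 0.47, adjusted p = 0.968, both by edgeR's quasi-likelihood test), and the groups of both genes overlapped. *Lum* varied more than its neighbor, 2.89-fold within Prmt3LKO tumors against 1.81-fold for *Dcn*. The ratio of *Dcn* to *Lum* in FPKM was therefore highest, at 8.30, in Prmt3f/f replicate 71 and lowest, at 4.47, in Prmt3LKO replicate 94.

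Of the enzymes that act on the matrix, *Lox* (chromosome 18, 52516069 to 52529867, minus strand) encodes lysyl oxidase, which starts the cross-linking of collagen and elastin. Its counts were low, at 84, 98 and 20 reads in Prmt3f/f replicates 7, 66 and 71 and 15, 42 and 55 reads in Prmt3LKO replicates 92, 93 and 94. In CPM these were 3.88, 4.57 and 0.703 against 0.857, 1.89 and 2.76. *Lox* had the widest spread of the 10 genes, 6.50-fold within Prmt3f/f tumors, with replicate 71 below all other tumors and replicates 7 and 66 above all Prmt3LKO tumors. The Prmt3LKO mean was 60.3% of the Prmt3f/f mean, and the log2 fold change was -0.71 (SE 0.69, 95% interval -2.31 to 0.88, adjusted p = 0.938, edgeR). An antisense gene, AC161119.1, overlaps the locus on the other strand.

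*Mmp2* (chromosome 8, 92827328 to 92853417, plus strand) encodes a gelatinase made by activated stellate cells. It was measured at 10.4, 26.5 and 13.1 CPM in Prmt3f/f replicates 7, 66 and 71, and at 11.1, 9.43 and 22.9 CPM in Prmt3LKO replicates 92, 93 and 94. A single tumor was high in each group, Prmt3f/f replicate 66 and Prmt3LKO replicate 94, and replicate 71 was not the lowest Prmt3f/f tumor in this gene alone. Its log2 fold change was -0.20 (SE 0.44, adjusted p = 0.983, edgeR).

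*Timp1* (chromosome X, 20870166 to 20874735, plus strand) encodes a secreted inhibitor of matrix metalloproteinases. Its level was 3.46, 2.57 and 1.83 CPM in Prmt3f/f replicates 7, 66 and 71, and 1.03, 2.89 and 1.21 CPM in Prmt3LKO replicates 92, 93 and 94. Prmt3LKO replicates 92 and 94 were the lowest tumors, and replicate 93 lay within the Prmt3f/f range. Its log2 fold change was -0.60 (SE 0.47, 95% interval -1.69 to 0.49, adjusted p = 0.907, edgeR). The gene lies inside *Syn1* on the other strand, which had 123 reads in all 6 tumors together. *Timp1* and *Mmp2* did not run in parallel, and their ratio in FPKM went from 0.116 in Prmt3LKO replicate 94 to 0.732 in Prmt3f/f replicate 7.

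Differences between tumors of one genotype were wide for these genes. The pooled SD of log2 CPM within groups had a median of 0.66 over the 10 genes, from 0.12 for *Tgfb1* to 1.15 for *Lox*, against a median of 0.28 and a 90th percentile of 0.73 over all genes tested. Prmt3f/f replicate 71 was the lowest Prmt3f/f tumor in 9 of the 10 genes, which was so in 33% of all genes tested. Prmt3LKO replicate 94 was the highest Prmt3LKO tumor in 8 of the 10 genes, against 33.8% of all genes tested, and 7 genes had both, against 11.6%. Prmt3f/f replicate 66 was the highest of all 6 tumors in 7 genes, against 14.9%. These genes were measured in the same libraries and may share cells, so the counts are a description.

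Replicate 71 was below replicate 66 in 10 of 10 genes, with a median log2 difference of -1.14, and below replicate 7 in 9 of 10, with a median of -0.97. Prmt3LKO replicate 94 was above replicate 92 in 9 of 10 genes, with a median of 0.88, and above replicate 93 in 8 of 10, with a median of 0.80. Over all genes tested these medians lay near 0. The mean of the 10 genes, each centered on its own mean log2 CPM, was 0.37, 0.64 and -0.63 in Prmt3f/f replicates 7, 66 and 71, and -0.46, -0.26 and 0.34 in Prmt3LKO replicates 92, 93 and 94. Each group thus held tumors above and tumors below the mean of all 6.

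**Figure D2:**
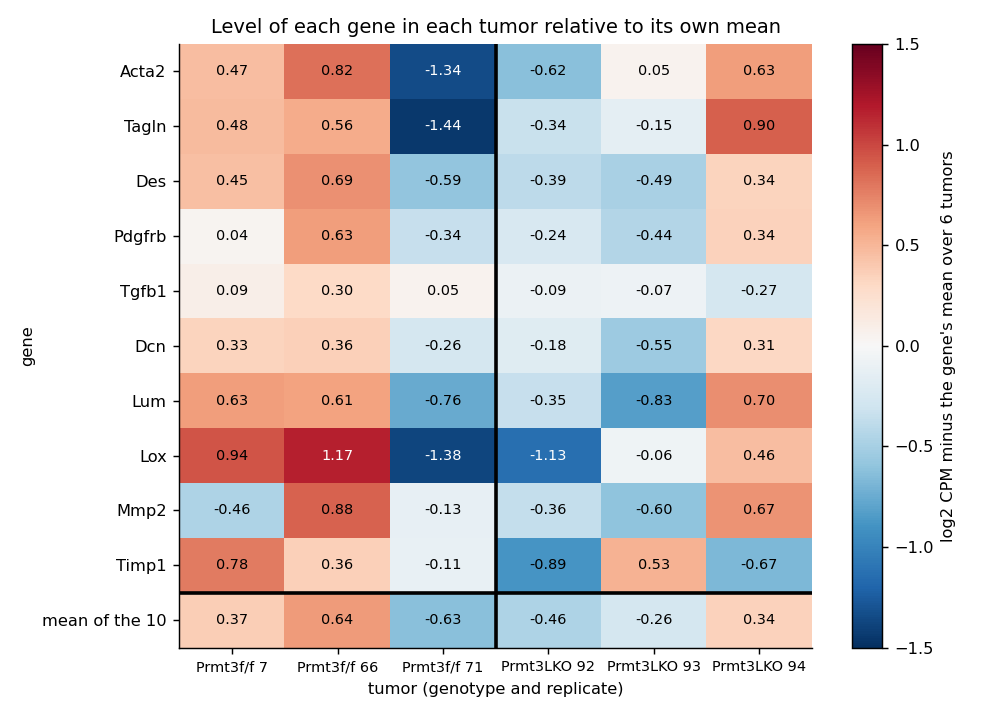
Log2 CPM of each of the 10 genes in each of the 6 tumors minus the gene's own mean, with the mean of the 10 genes in the bottom line (red above the mean, blue below). The bottom line reads 0.37, 0.64 and -0.63 in the Prmt3f/f tumors and -0.46, -0.26 and 0.34 in the Prmt3LKO tumors.

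The 5 genes outside the list with the pattern nearest to this mean over the 6 tumors, by root mean square distance of centered log2 CPM, were *Ace* (0.12), *Postn* (0.13), *Adat3* (0.14), *Lrrc75a* (0.14) and *Col3a1* (0.15). *Postn* encodes periostin and *Col3a1* the chain of type III collagen. Among the 10 genes themselves *Des* was nearest, at 0.11, and *Timp1* farthest, at 0.62. *Postn* had 20.03, 29.9 and 12.2 CPM in Prmt3f/f replicates 7, 66 and 71, and 13.6, 17.2 and 24.9 CPM in Prmt3LKO replicates 92, 93 and 94. *Col3a1* had 204.8, 323.7 and 105.2 CPM against 122.9, 138.3 and 192.7 CPM in the same order. As these genes were chosen for their likeness to the mean profile, their tumor order is a description of that choice.

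The weight of single tumors in the comparison was measured by leaving out each in turn. Without Prmt3f/f replicate 71 the log2 fold change was below 0 in 10 of 10 genes, with a median of -0.50, and without Prmt3LKO replicate 94 it was also below 0 in 10 of 10, with a median of -0.51. Without Prmt3f/f replicate 66 it was below 0 in 6 genes and above 0 in 4, with a median of -0.13. Without Prmt3LKO replicate 93 it was below 0 in 8 genes, with a median of -0.092, and without replicate 92 in 8, with a median of -0.19. Leaving out Prmt3f/f replicate 7, which stood apart on the first principal component of all genes, gave 9 genes below 0 and a median of -0.31. No fit called any of the 10 genes, and 0.593 was the smallest adjusted p among them, for *Tgfb1* without Prmt3f/f replicate 7.

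The sign of 4 genes turned on a single tumor. *Acta2* went from -0.13 to 0.29 without Prmt3f/f replicate 66 and to -0.55 without replicate 71. *Tagln* went from 0.15 to -0.27 without Prmt3f/f replicate 71 and to -0.34 without Prmt3LKO replicate 94. *Mmp2* went from -0.20 to 0.30 without Prmt3f/f replicate 66 and to -0.69 without Prmt3LKO replicate 94, and *Pdgfrb* from -0.24 to 0.066 without Prmt3f/f replicate 66. The sign of the other 6 genes held in every such fit, and *Tgfb1* moved least, between -0.34 and -0.21. *Lox* reached -1.19 with an unadjusted p = 0.0406 in edgeR's fit without Prmt3f/f replicate 71, where 7.86% of all genes tested had an unadjusted p under 0.05. *Timp1* reached -1.22 with an unadjusted p = 0.0242 in edgeR's fit without Prmt3LKO replicate 93, where 6.2% of genes did.

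**Figure D3:**
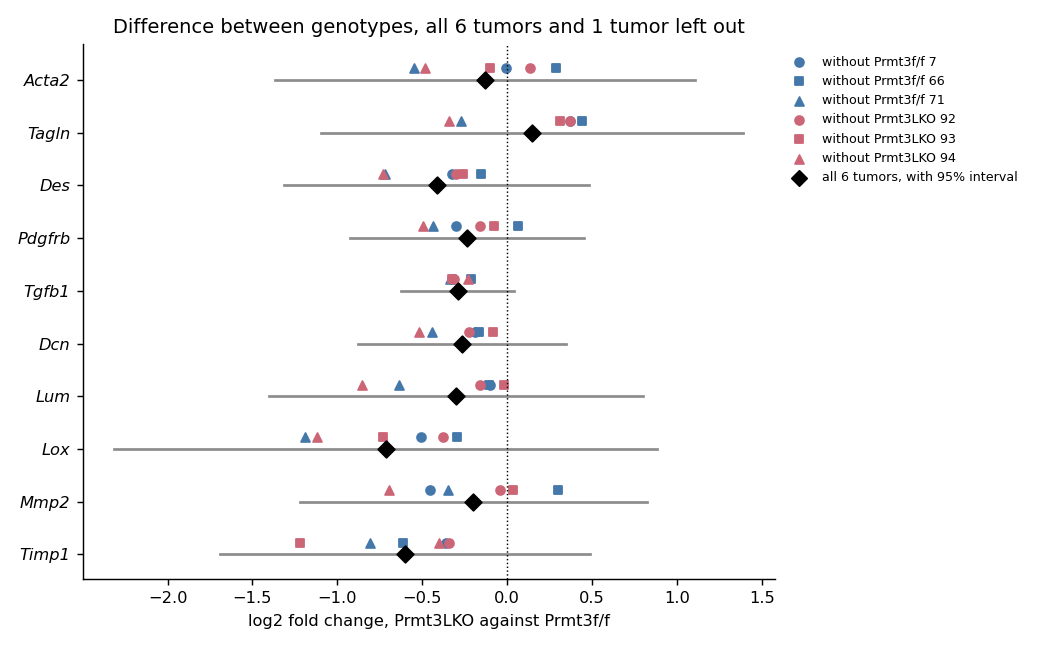
Log2 fold change of Prmt3LKO against Prmt3f/f tumors for each of the 10 genes, with the 95% interval of the fit to all 6 tumors and the values with each tumor left out in turn. Every interval holds 0, and Acta2 ranges from -0.55 to 0.29 with 1 tumor left out.

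Other genes of the same pathways were examined in 8 lists, which hold 93 genes, 85 of them tested, with *Ltbp2* in both TGF-beta lists. None of the 85 was called by edgeR's quasi-likelihood test, by DESeq2, by edgeR's exact test or by limma-voom. The first of these called 0% of all genes tested, and the shares for the others are not given here. At an unadjusted p under 0.05 in the quasi-likelihood test, 2 were lower (*Prelp* and *Cnn2*) and 0 were higher, against 4.37% of all genes tested lower and 2.2% higher. The fitted log2 fold change was below 0 in 61 and above 0 in 24, with a median of -0.14.

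TGF-beta ligands, receptors and activators had 11 of 17 genes below 0 and a median of -0.088. *Tgfbr2*, the receptor that binds the ligand first, had close group means, at 151.6 ± 17.9 CPM (SD, n = 3) in Prmt3f/f and 151.7 ± 40.7 CPM (SD, n = 3) in Prmt3LKO tumors. *Thbs1*, an activator of latent TGF-beta, had a log2 fold change of -0.59 (adjusted p = 0.892, edgeR) with groups that overlapped. TGF-beta response genes had 11 of 14 below 0 and a median of -0.15. *Fn1*, fibronectin, had -0.14, and *Tgfbi*, a matrix protein named for its induction by TGF-beta, had -0.41 (adjusted p = 0.766, edgeR), with 44.2 to 61.7 CPM in Prmt3f/f and 36.04 to 45.3 CPM in Prmt3LKO tumors.

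PDGF ligands and the receptor *Pdgfra* had 3 of 5 genes below 0 and a median of -0.40, and *Pdgfb*, a ligand of the receptor described above, had -0.47 (adjusted p = 0.791, edgeR). Contractile genes had 6 of 13 below 0 and a median of 0.015, which was -0.014 when scaled by library size alone, -0.0015 among genes with a mean of 1 CPM or more, and -0.0040 or -0.026 on FPKM with a pseudocount of 1 or 0.1. *Cnn2*, calponin 2, went from 17.8 ± 3.02 to 13.2 ± 1.53 CPM (SD, n = 3 each), a log2 fold change of -0.43 (adjusted p = 0.750, edgeR), and *Actn1*, alpha-actinin, had 0.23. The tumor order seen for *Acta2* was common in this list. Replicate 71 was the lowest Prmt3f/f tumor in 11 of 13 genes, against 33% of all genes tested. Replicate 94 was the highest Prmt3LKO tumor in 9, against 33.8%, and 8 had both, against 11.6%. This order was not particular to the contractile list. The first 2 counts were 8 and 8 of 12 for the stromal collagens and 5 and 5 of 7 for the lysyl oxidases and hydroxylases, but 2 and 4 of 6 for the small leucine-rich proteoglycans.

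Lysyl oxidases and lysyl hydroxylases had 6 of 7 below 0 and a median of -0.30. *Loxl3*, a relative of *Lox*, had -0.45, and the hydroxylase *Plod1* had 0.0042. Small leucine-rich proteoglycans had 4 of 6 below 0 and a median of -0.10. Here *Prelp*, which anchors basement membranes to connective tissue, had 143.4, 158.8 and 93.1 CPM in Prmt3f/f replicates 7, 66 and 71, and 93.5, 68.2 and 91.5 CPM in Prmt3LKO replicates 92, 93 and 94. Its log2 fold change of -0.64 (SE 0.23, adjusted p = 0.684, edgeR) went with groups that overlapped only at Prmt3f/f replicate 71, as in *Des* and *Lox*.

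Matrix metalloproteinases and their inhibitors had 10 of 12 below 0 and a median of -0.22. *Mmp12*, the macrophage elastase, had -1.01 (adjusted p = 0.870, edgeR), with 4.25, 32.6 and 11.2 CPM in Prmt3f/f and 6.11, 9.74 and 7.99 CPM in Prmt3LKO tumors, and the membrane-bound *Mmp15* had -0.090. Stromal collagens had 11 of 12 below 0 and a median of -0.34. *Col15a1*, a basement membrane collagen, had -0.37 (adjusted p = 0.774, edgeR), and *Col4a1*, another, had -0.12. The medians of 7 of the 8 lists changed sign with 1 tumor left out, and that of the lysyl oxidases and hydroxylases did not. Without Prmt3f/f replicate 66 the median was 0.33 for the proteoglycans, 0.20 for the collagens, 0.17 for the TGF-beta response genes, 0.080 for the TGF-beta ligands, receptors and activators, and 0.038 for the metalloproteinases and inhibitors. Without Prmt3LKO replicate 92 that of the proteoglycans was 0.22, and without replicate 93 it was 0.069, whereas without replicate 94 it was -0.73. The contractile list went to -0.15 without Prmt3f/f replicate 71 and to -0.091 without Prmt3LKO replicate 94, and the PDGF list to 0.091 without Prmt3f/f replicate 7.

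**Figure D4:**
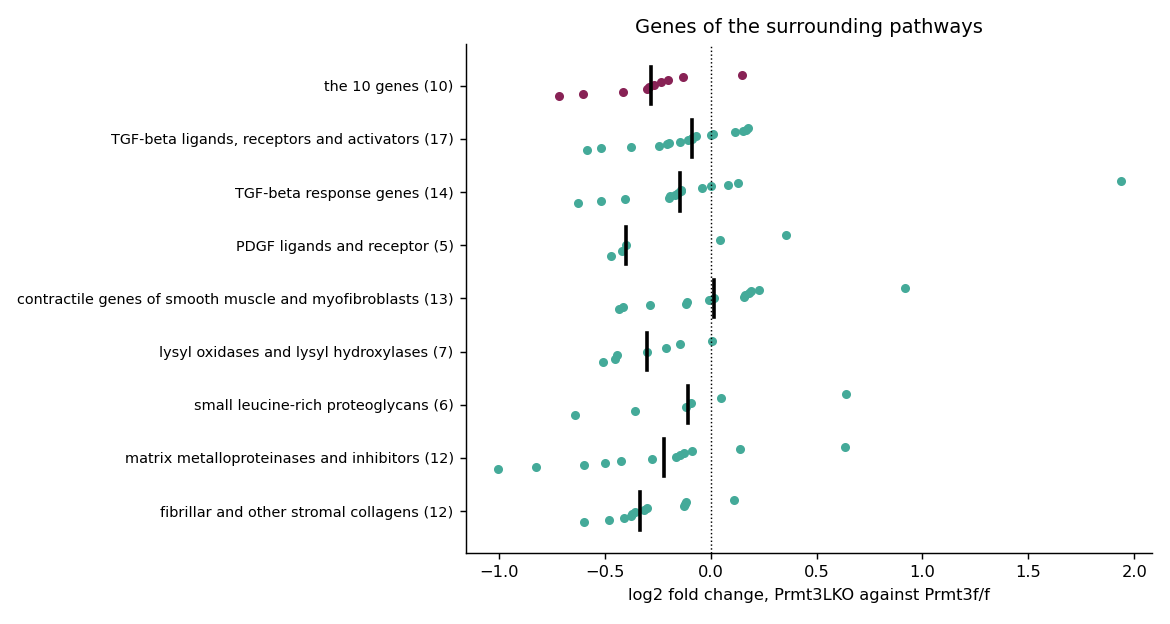
Log2 fold change of Prmt3LKO against Prmt3f/f tumors for the tested genes of each pathway list and for the 10 genes, 1 point for each gene, with the median of each list. The medians lie between -0.40 for the PDGF list and 0.015 for the contractile list, and no gene passed the test.

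Markers of the cells that could carry these genes were read beside them, and their part in the levels above was not tested. Markers of quiescent stellate cells were present, at a summed 256.8 to 372.2 CPM in Prmt3f/f and 311.3 to 387.2 CPM in Prmt3LKO tumors. *Lrat*, which esterifies vitamin A, had a mean of 15.1 and 14.1 CPM, and 4 of the 11 tested markers lay below 0 with a median of 0.10. *Gfap* was at or under 0.60 CPM. Portal fibroblast markers summed to 62.7 to 93.96 CPM in Prmt3f/f and 65.3 to 87.4 CPM in Prmt3LKO tumors, with 3 of 6 tested below 0. In 1 of these 6, *Thy1*, every Prmt3LKO tumor lay below every Prmt3f/f tumor, against 6.6% of all genes tested, and 0 had the opposite order. *Thy1* was at 7.80, 5.88 and 4.04 CPM in Prmt3f/f and 1.71, 3.70 and 3.77 CPM in Prmt3LKO tumors (adjusted p = 0.739, edgeR).

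Mesothelial markers, whose cells can express *Dcn* and *Lum*, summed to 5.68, 28.7 and 28.4 CPM in Prmt3f/f replicates 7, 66 and 71 and to 5.54, 6.54 and 15.4 CPM in Prmt3LKO replicates 92, 93 and 94. All 6 of these markers had a fitted log2 fold change below 0, against 49.9% of all genes tested, with a median of -1.19. The quasi-likelihood test called 0 of the 6, and the groups overlapped in each. Their sum was high, as *Dcn* and *Lum* were, in Prmt3f/f replicate 66. Each of the 6 was highest of the Prmt3LKO tumors in replicate 94, whereas in replicates 7 and 71 the sum ran opposite to *Dcn* and *Lum*. Markers of skeletal muscle and heart, which also express *Des*, summed to 14.1 CPM in Prmt3f/f replicate 7 and to 0.743 to 2.48 CPM elsewhere, with *Myh4* and *Myl1* at 0 in all tumors. Endothelial markers summed to 274.6 to 350.0 CPM in Prmt3f/f and 282.3 to 334.9 CPM in Prmt3LKO tumors. Cholangiocyte markers summed to 4103 CPM in Prmt3f/f replicate 7 and 207.4 to 1016 CPM elsewhere, and *Spp1* alone made 4075 CPM of the first sum. The other 5 cholangiocyte markers summed to 27.9, 38.0 and 18.2 CPM in Prmt3f/f replicates 7, 66 and 71, and to 17.2, 17.1 and 22.9 CPM in Prmt3LKO replicates 92, 93 and 94. Hepatocyte markers summed to 137672 to 201327 CPM in Prmt3f/f and 153509 to 165694 CPM in Prmt3LKO tumors, most of it *Alb*. Among them *Cyp2e1* was at 166.1 CPM in Prmt3f/f replicate 7 and 244.1 CPM in Prmt3LKO replicate 93, against 1057 to 1330 CPM in the other 4 tumors, and *Cps1* was lowest in the same tumors.

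*Prmt3* itself, the targeted gene, was at 6.60, 8.49 and 10.2 CPM in Prmt3f/f and 2.80, 2.03 and 3.82 CPM in Prmt3LKO tumors. Its mean in Prmt3LKO tumors was 34.3% of that in Prmt3f/f tumors (log2 fold change -1.55, adjusted p = 0.592, edgeR). Total counts were 18440244 to 27976598 per tumor, and 3 counts correspond to 0.107 to 0.163 CPM, so each of the 10 genes, at 15 reads or more in every tumor, was above that limit. In a principal component analysis, Prmt3f/f replicate 7 scored -55.6 on the first component (33.1% of variance) and the other tumors -22.2 to 25.6.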

How the data were processed

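RNA from 3 Prmt3f/f and 3 Prmt3LKO liver tumors was sequenced as paired reads of 150 bp. The submitters' processing notes name bcl2fastq 2.19, HISAT2 2.0.4, StringTie 1.3.0 and the build GRCm38, and the counting tool, annotation release and strand setting are not given in the sources used here. The authors deposited for each gene and tumor a count of reads, which is not normalized. FPKM, also deposited by the authors, is this count over a length set for each gene and over the library total. The implied length was equal across tumors within a ratio of 1.00 for the 8975 genes with at least 100 counts in each. It was shorter than the span from start to end in all 10 genes, such as 2084 bp against 38663 bp for *Dcn*. All value columns belong to these tumors and 0 were left unused.

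Counts were filtered with filterByExpr (minimum count 10, minimum total count 15), scaled by TMM and tested with edgeR 4.0.16 (quasi-likelihood test, R 4.3.3), with Benjamini-Hochberg adjustment over 13892 genes. CPM used TMM-scaled library sizes, and log2 CPM a prior count of 2. Exact two-sided permutation tests compared single genes over 6 tumors. The fit was tested on simulated counts with known changes, at an adjusted p under 0.05. It recovered 21 of 99 genes changed 2-fold and 81 of 100 changed 4-fold, and called 8 unchanged genes. Each gene was drawn independently of the others, and the changed genes were picked at random. These shares therefore do not give the power for the 10 genes, whose pooled SD within groups had a median of 0.66, against 0.28 over all genes tested. Floors of 3 counts cover counting error only, and groups of 3 tumors limit the precision.

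The 10 genes, the pathway lists and the marker lists were chosen with earlier results of these data known. Named genes were all 10, the gene of each pathway list with the highest mean FPKM and that with the smallest unadjusted p, and the 5 other genes nearest to the mean profile of the 10; marker genes are named beside these. Alternatives were DESeq2 1.42.0, edgeR's exact test, limma-voom (limma 3.58.1), scaling by library size alone, keeping every gene with 1 count, keeping genes with a mean of 1 CPM or more, limma on log2 FPKM with a pseudocount of 1 or 0.1, and each tumor left out. Promoters came from RefSeq and motifs were searched on both strands.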

Additional observations from a re-analysis of the deposited data

How the results depend on the processing

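No alternative called any of the 10 genes, and the share of all genes called by each is not given here. Over 15 alternatives for each, 141 of 150 fold changes kept their sign and 9 were reversed, none of them past the threshold. *Acta2* was reversed to 0.11 with limma-voom, 0.012 on log2(FPKM + 0.1), 0.29 without Prmt3f/f replicate 66 and 0.13 without Prmt3LKO replicate 92. *Tagln* was reversed to -0.27 without Prmt3f/f replicate 71 and -0.34 without Prmt3LKO replicate 94, *Pdgfrb* to 0.066 without Prmt3f/f replicate 66, and *Mmp2* to 0.30 without that tumor and 0.035 without Prmt3LKO replicate 93. With each tumor left out, the log2 fold change ranged from -0.55 to 0.29 for *Acta2*, -0.34 to 0.44 for *Tagln*, -0.73 to -0.15 for *Des*, -0.50 to 0.066 for *Pdgfrb*, -0.34 to -0.21 for *Tgfb1*, -0.52 to -0.085 for *Dcn*, -0.86 to -0.017 for *Lum*, -1.19 to -0.30 for *Lox*, -0.69 to 0.30 for *Mmp2* and -1.22 to -0.35 for *Timp1*. The median of the 10 stayed between -0.51 and -0.092. *Lox* went to -0.16 on log2(FPKM + 1), a scale that understates changes of low genes. It also went to -0.43 on log2(FPKM + 0.1) and to -0.32 with limma-voom, and was -0.72 with DESeq2 and with edgeR's exact test. The cause of these shifts was not tested. The legacy setting of edgeR listed as an alternative is the default of this version and gave the values reported, and its newer setting was added after the data were seen. No paired analysis was possible because the groups share no replicate number. Depth limits *Lox* and *Timp1* most, at 15 and 18 reads in their lowest tumors.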
